A study of Mus musculus with 4 samples.

Results

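Peroxisomes are small organelles that shorten very long, branched and unsaturated fatty acids and break down the hydrogen peroxide that this oxidation makes. They are built by peroxins, which insert membrane proteins, carry finished enzymes across the membrane and divide the organelle. Their number and enzyme content are known to follow fatty acid supply through the nuclear receptor PPAR-alpha, and enterocytes of the small intestine are rich in them. The genes described here were 36 mouse genes of peroxisome biogenesis and peroxisomal lipid oxidation, found by mapping the Ensembl IDs of the count tables to symbols. Their list was given, and it was chosen with earlier results of these data known. All 36 were found once among 38124 gene IDs. They were 13 peroxins, 17 enzymes and 6 membrane transporters or membrane proteins.

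RNA was measured by sequencing of sorted intestinal epithelial cells from C57BL/6 males aged 71 weeks, on a high-fat diet (HFD) or on the control diet, which the labels call normal. The titles mark the control libraries WT and the others HFD, and the same strain is given for both. On each diet, cells were sorted by GFP. The labels call the GFP-high cells intestinal stem cells and the GFP-low cells progenitors. Each of the 4 libraries came from 200000 cells pooled from 2 to 5 mice, and each of the 4 groups is a lone library without a replicate. The sources used here do not give the driver of GFP, what the diets contained, or whether a diet's GFP-high and GFP-low cells were sorted from the same mice.

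On HFD the GFP-high library held 6207080 counts and the GFP-low library 5327015. On control diet the GFP-high library held 5201394 counts and the GFP-low library 4677389. Of 10 stem cell markers all were higher in GFP-high than in GFP-low cells. Lgr5, the first of them, had 242 and 12.5 CPM in GFP-high and GFP-low cells on HFD, and 241 and 12.7 CPM in GFP-high and GFP-low cells on control diet, where CPM is the count per 1000000 counts after scaling of the libraries by edgeR's TMM method. Ptprc, which marks leukocytes, had 0 counts in every library. All 10 leukocyte markers together had 10 and 13 counts in GFP-high and GFP-low cells on HFD, and 8 and 23 counts in GFP-high and GFP-low cells on control diet. Mitochondrial ribosomal RNA took 1.18% of the counts in the HFD GFP-high library, against 2.54% to 2.82% in the other libraries. Enterocyte markers were not level between the libraries. The summed CPM of 15 such genes came to 1882 in GFP-high and 9615 in GFP-low cells on HFD, and 1513 in GFP-high and 5182 in GFP-low cells on control diet. That of 7 goblet cell markers came to 2965 in GFP-high and 17112 in GFP-low cells on HFD, and 3304.5 in GFP-high and 38842 in GFP-low cells on control diet.

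The upstream sequences of 28 of the 36 genes were matched in RefSeq (GRCm38.p6), with 33 annotated starts. Genes without a matched start, among them Hsd17b4 and Amacr, were not searched. A count of CpG dinucleotides was added after the levels below had been seen, and the genes printed were also chosen then, to show both CpG-poor and CpG-rich starts. Stretches of 80 bases directly before the RefSeq start are given for 3 enzymes, 2 peroxins and 1 transporter, 5′ to 3′ along the gene, with CG in capitals.
Acaa1b (chr9:119157094-119157173, minus strand): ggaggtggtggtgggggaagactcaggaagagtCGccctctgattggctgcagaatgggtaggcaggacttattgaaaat
Ehhadh (chr16:21787835-21787914, minus strand): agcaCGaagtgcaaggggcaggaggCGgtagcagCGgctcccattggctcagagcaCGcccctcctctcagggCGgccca
Cat (chr2:103485154-103485233, minus strand): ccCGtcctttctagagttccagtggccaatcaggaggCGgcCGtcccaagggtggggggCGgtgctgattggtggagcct
Pex6 (chr17:46711396-46711475, plus strand): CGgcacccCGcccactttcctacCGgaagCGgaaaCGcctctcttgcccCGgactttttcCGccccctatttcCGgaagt
Pex13 (chr11:23665884-23665963, minus strand): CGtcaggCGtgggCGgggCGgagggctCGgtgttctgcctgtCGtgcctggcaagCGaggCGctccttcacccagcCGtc
Abcd3 (chr3:121815303-121815382, minus strand): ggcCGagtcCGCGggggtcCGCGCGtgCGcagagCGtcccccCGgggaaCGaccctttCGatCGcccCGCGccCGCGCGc

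The stretch of Acaa1b held 1 CG, those of Ehhadh and Cat held 5 and 4, those of Pex6 and Pex13 held 8 and 9, and that of Abcd3 held 17. In GENCODE M21 the outer end of Pex13 is at 23665959, so most of its printed stretch lies inside the gene. The stretches of Cat (outer end 103485160) and Pex6 (outer end 46711463) overlap their genes in a smaller part. Over the 250 bases, the ratio of observed to expected CpG had a median of 0.56 over 15 enzyme starts and of 0.74 over 14 peroxin starts, beside 0.74 over the 10796 starts of tested genes and 0.37 over all 32851 starts. It reached 0.6 at 5 of 15 enzyme starts (33.3%) and at 11 of 14 peroxin starts (78.6%), beside 67.5% of the starts of tested genes. Some genes have several starts here, so the starts are not independent, and the difference between the classes was not tested.

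**Figure D1:**
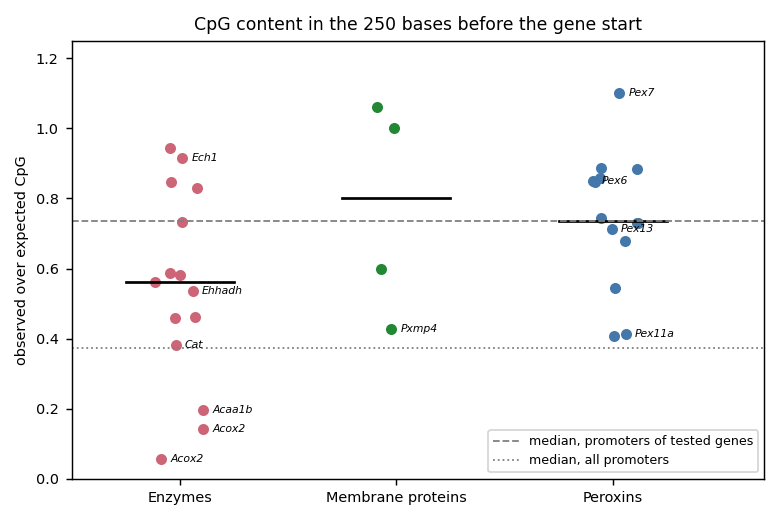
Observed over expected CpG in the 250 bases before each annotated start, with 1 point per start, by class. Black bars are class medians (0.56 for enzymes, 0.80 for membrane proteins, 0.74 for peroxins). The lowest values are those of the enzymes Acox2 and Acaa1b.

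The response element of the PPAR receptors is a direct repeat of the hexamer AGGTCA with 1 base between the copies. The exact repeat, with any base between and on either strand, was in the 250 bases before none of the 33 starts and before 0.0335% of all starts. A looser form, with any base also at the fourth place of each hexamer (AGGNCA) and added after the data were seen, was also before none of the 33, and before 0.338% of all starts. The lone hexamer AGGTCA, on either strand, which the repeat contains, was before 3 of the 33 starts and before 14.0% of all starts. Those 3 genes are shown with the hexamer in capitals. Of them Cat was called higher under HFD, and Scp2 and Pex11g were not called for diet (edgeR adjusted p = 0.102 and 0.616).
Cat (chr2:103485340-103485369, minus strand): tgtgactctcagAGGTCAgagaacaccagc
Scp2 (chr4:108118639-108118668, minus strand): gtctaacacagtAGGTCAaaagaacccata
Pex11g (chr8:3467804-3467833, minus strand): aacaggcttagaAGGTCAttctgggtgtcc

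The hexamer of Cat began 204 bases before the annotated start, that of Scp2 109 bases and that of Pex11g 173 bases. The only Scp2 start matched here lies inside the gene, which spans 108043839 to 108144998 on the minus strand in GENCODE M21. The sequence before the outer end of Scp2 was therefore not searched. A match of letters is a description of the sequence and not a binding site. Repeats as rare as those above are seldom met in so few starts, so their absence says nothing about these genes.

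Levels of the genes were compared per kilobase of exon. The highest mean over the 4 libraries was 70.7 CPM per kb for Cat (51.1 to 95.7), the catalase that breaks down hydrogen peroxide. Next came Ech1 at 61.8 CPM per kb (34.5 to 91.9) and Phyh at 50.8 (44.9 to 56.8), and their ranges over the libraries overlapped with each other and with that of Cat. Hsd17b4 followed at 36.4 CPM per kb (26.5 to 53.1), Abcd3 at 25.8 (13.3 to 46.2), Ehhadh at 24.4 (13.7 to 41.5), Scp2 at 23.9 (16.2 to 34.7), Pex19 at 20.8 (15.5 to 28.0) and Ephx2 at 20.5 (11.8 to 27.3), and neighbours in this order had overlapping ranges. The median of the mean level was 11.6 CPM per kb over 17 enzymes, 7.07 over 6 membrane proteins and 6.5 over 13 peroxins. Among the peroxins the lowest was Pex7 (2.20 CPM per kb). Abcd2, a transporter of very long chain fatty acids, had 0 and 1 counts in GFP-high and GFP-low cells on HFD and 1 count in each control library. Acox2, an acyl-CoA oxidase of bile acid intermediates, had 6 counts in each HFD library, and 8 and 7 counts in GFP-high and GFP-low cells on control diet. Abcd2, Acox2 and Acaa1b fell below the filter of at least 20 counts in at least 2 libraries, so 33 of the 36 genes were tested.

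The diets were compared over both fractions, to ask which peroxisomal genes differ with a high-fat diet. Under HFD 9 of the 33 tested genes rose and none fell. They were 7 enzymes and 2 membrane proteins, and no peroxin passed. The risers included the isomerases of unsaturated acyl-CoAs Ech1 (1.87-fold) and Eci2 (1.84-fold), the catalase Cat (1.59-fold), the bifunctional enzymes Ehhadh (1.45-fold) and Hsd17b4 (1.60-fold) and the transporter Abcd3 (1.63-fold). Of all 10694 tested genes, 6.46% were called, 2.96% higher and 3.50% lower (edgeR's quasi-likelihood test, adjusted p under 0.05). Because the list was chosen with earlier results known, no test was made over it. No member was lower at an unadjusted p under 0.05 in edgeR either, beside 1097 of all 10694 tested genes. DESeq2's Wald test called 5 members higher and 0 lower, beside 73 and 114 of all tested genes.

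The genes of the bifunctional step and the thiolases, which carry the core of peroxisomal beta-oxidation, were followed first. Ehhadh, the L-bifunctional protein and a known PPAR-alpha target, had 51.1 and 124 CPM in GFP-high and GFP-low cells on HFD, against 40.7 and 75.4 CPM in GFP-high and GFP-low cells on control diet. It lies on chromosome 16 (21761287 to 21787807, GRCm38). Within each fraction the HFD library was the higher, and the log2 ratio over both was 0.53 ± 0.12 (SE, edgeR adjusted p = 0.015). Hsd17b4, the D-bifunctional protein, which also handles branched chains and bile acid intermediates, had 127 and 181 CPM in GFP-high and GFP-low cells on HFD, against 90.1 and 98.3 CPM in GFP-high and GFP-low cells on control diet. Its log2 ratio was 0.68 ± 0.11 (SE, edgeR adjusted p = 0.00127), and the control libraries lay closer together than the HFD libraries. Neither gene passed for diet in DESeq2's Wald test (adjusted p = 0.575 for Ehhadh and 0.0602 for Hsd17b4).

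Acaa1a and Acaa1b are the thiolases that cut the acyl chain in the last step. Acaa1a had 47.2 and 71.8 CPM in GFP-high and GFP-low cells on HFD, against 40.7 and 45.3 CPM in GFP-high and GFP-low cells on control diet, and its ratio of 0.44 ± 0.14 (log2, SE) did not pass (edgeR adjusted p = 0.0695). It passed, as did Pex13, when no filter on counts was used. Acaa1b had 8 and 33 counts in GFP-high and GFP-low cells on HFD, against 0 and 1 counts in GFP-high and GFP-low cells on control diet. It was nearly silent on control diet and most of its reads came from the HFD GFP-low library. In GFP-low cells the ratio of HFD to control was 29.5 (95% counting interval 4.93 to 1199), and in GFP-high cells the 8 HFD counts were 2.21-fold over a limit of 3 counts for the control library. That takes the 8 counts as exact. With their counting error included, the 95% interval of the ratio began at 1.41-fold. It passed in a fit with no filter on counts (log2 ratio 4.89, edgeR adjusted p = 2.75e-05), a ratio that depends on the count added to zeros.

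The thiolases are near copies, and reads of Acaa1a that match both could have been counted for either. Over 1471 aligned bases of their longest coding transcripts in GENCODE M21, 95.7% were identical, and 42.6% of the stretches of 36 bases in Acaa1b were also in Acaa1a. Acaa1a had 315 and 355 counts in GFP-high and GFP-low cells on HFD, and 225 and 200 in GFP-high and GFP-low cells on control diet. How the counting treated shared reads is not stated, and their part in the Acaa1b counts was not tested.

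Of the 4 enzymes for double bonds, the isomerases rose and the reductases did not pass. Ech1 on chromosome 7 (28825217 to 28832247), an isomerase of dienoyl-CoAs, had 157 and 209.8 CPM in GFP-high and GFP-low cells on HFD, against 78.7 and 119 CPM in GFP-high and GFP-low cells on control diet. It had a log2 ratio of 0.99 in GFP-high (95% counting interval 0.83 to 1.16), 0.81 in GFP-low (0.66 to 0.97) and 0.90 ± 0.10 (SE) over both (edgeR adjusted p = 2.67e-05). Both HFD libraries stood above both control libraries, and Ech1 had the lowest adjusted p of the 33 genes. Eci2 on chromosome 13 (34977748 to 35027096), which moves double bonds for further oxidation, had 71.2 and 77.9 CPM in GFP-high and GFP-low cells on HFD, against 41.8 and 39.0 CPM in GFP-high and GFP-low cells on control diet (log2 0.88 ± 0.12 SE, edgeR adjusted p = 0.000293). The fractions of a diet were close to each other for Eci2, and the diets were apart. Decr2, a dienoyl-CoA reductase, stood at 0.24 ± 0.14 (log2, SE) with an edgeR adjusted p of 0.375, and Pecr, an enoyl-CoA reductase, at 0.18 ± 0.21 (log2, SE) with an adjusted p of 0.681.

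Of the branched chain enzymes only Amacr passed among the 5 tested. Amacr on chromosome 15 (10981756 to 10996626), the racemase that turns branched acyl-CoAs and bile acid intermediates into the form that can be oxidized, had 18.3 and 21.7 CPM in GFP-high and GFP-low cells on HFD, against 8.87 and 12.2 CPM in GFP-high and GFP-low cells on control diet (log2 0.93 ± 0.21 SE, edgeR adjusted p = 0.0124). It did not pass in DESeq2's Wald test (adjusted p = 0.461). Its counts were 122 and 107 in GFP-high and GFP-low cells on HFD and 49 and 54 in GFP-high and GFP-low cells on control diet. Phyh, which starts the alpha-oxidation of phytanic acid, had 87.0 and 107 CPM in GFP-high and GFP-low cells on HFD, against 85.1 and 105 CPM in GFP-high and GFP-low cells on control diet. Its log2 ratio was 0.03 ± 0.11 (SE, edgeR adjusted p = 0.911), with 0.03 in each fraction. Scp2, which encodes a sterol carrier and a thiolase for branched chains, stood at 0.32 ± 0.11 (log2, SE, edgeR adjusted p = 0.102). Acox3, the oxidase of branched acyl-CoAs, stood at 0.18 ± 0.14 (SE, adjusted p = 0.515), and Hacl1, the lyase after Phyh, at 0.18 ± 0.36 (SE, adjusted p = 0.831) on 20 to 35 counts per library.

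Cat on chromosome 2 (103453849 to 103485160) had 205 and 250.1 CPM in GFP-high and GFP-low cells on HFD, against 150.4 and 133 CPM in GFP-high and GFP-low cells on control diet. Both HFD libraries were above both control libraries, and the log2 ratio was 0.67 ± 0.11 (SE, edgeR adjusted p = 0.00245). Crot on chromosome 5 (8966033 to 8997324), the carnitine octanoyltransferase that readies shortened chains for export to mitochondria, had 42.7 and 57.9 CPM in GFP-high and GFP-low cells on HFD, against 33.3 and 34.0 CPM in GFP-high and GFP-low cells on control diet (log2 0.56 ± 0.14 SE, edgeR adjusted p = 0.0247). It had the highest adjusted p of the 9 calls and was lost in DESeq2's Wald test (adjusted p = 0.745), with DESeq2's size factors in edgeR (adjusted p = 0.0645, with 0.00194 to 1.0 over all alternatives) and in some of the fits with TMM factors from the tested genes. Ephx2, the soluble epoxide hydrolase that opens lipid epoxides, had 29.4 and 67.6 CPM in GFP-high and GFP-low cells on HFD, against 39.5 and 67.7 CPM in GFP-high and GFP-low cells on control diet. Ephx2 and Pex26 were the tested genes with a diet ratio below 0, and neither passed (log2 -0.20 ± 0.14 SE and -0.18 ± 0.14 SE, edgeR adjusted p = 0.449 and 0.498).

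Of 5 tested membrane proteins 2 rose, the transporter Abcd3 and Pxmp4. Abcd3 on chromosome 3 (121758774 to 121815302), the most abundant transporter here and a carrier of acyl-CoAs into the peroxisome, had 124 and 304 CPM in GFP-high and GFP-low cells on HFD, against 87.8 and 163 CPM in GFP-high and GFP-low cells on control diet (log2 0.71 ± 0.11 SE, edgeR adjusted p = 0.00105). Pxmp4 on chromosome 2 (154585758 to 154603708), a membrane protein of unsettled function, had 41.5 and 68.8 CPM in GFP-high and GFP-low cells on HFD, against 25.5 and 25.6 CPM in GFP-high and GFP-low cells on control diet. Its control libraries were level, and it had the largest ratio of the tested genes (log2 1.06 ± 0.17 SE, edgeR adjusted p = 0.00189). The other membrane proteins did not pass. Slc25a17, a carrier of cofactors, stood at 0.13 ± 0.18 (log2, SE, edgeR adjusted p = 0.744), Pxmp2, a channel, 0.37 ± 0.35 (SE, adjusted p = 0.607) and Abcd4, known mostly as a lysosomal cobalamin transporter, 0.19 ± 0.21 (SE, adjusted p = 0.669).

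**Figure D2:**
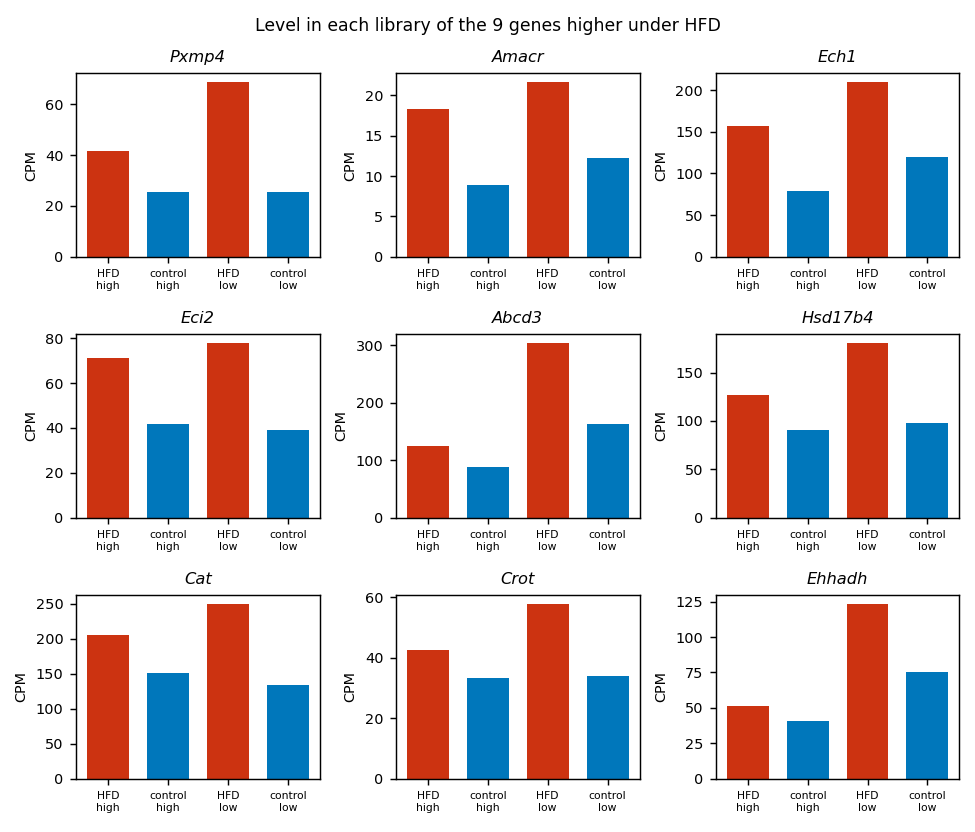
Level in CPM in each of the 4 libraries for the 9 genes higher under HFD, 1 library per bar and no error, with HFD in red and control in blue. In every panel the HFD bar is above the control bar of the same fraction, and for Pxmp4 the control bars are level at 25.5 and 25.6 CPM.

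No peroxin passed for diet at the count filter used, in edgeR or in DESeq2, although 4 of 13 were higher at an unadjusted p under 0.05 in edgeR and 0 in DESeq2. Of all 10694 tested genes, 1077 were higher at that threshold in edgeR and 265 in DESeq2. Of the 13, 12 had a ratio above 0, and the median log2 ratio was 0.26, beside 0.01 over all tested genes, 52.1% of which were above 0. Higher under HFD in both fractions were 10 of the 13, and the share of all tested genes with that pattern was not counted. The enzymes had a median of 0.44 over 15 tested genes and the membrane proteins 0.37 over 5. No test was made between the classes. The highest ratio among the peroxins was that of Pex13. Pex13, a docking protein of the import pore, had 28.0 and 36.4 CPM in GFP-high and GFP-low cells on HFD, against 20.3 and 25.6 CPM in GFP-high and GFP-low cells on control diet (log2 0.49 ± 0.15 SE, edgeR adjusted p = 0.0665). Pex11a, a division factor that fatty acid receptor agonists raise in mouse liver, had 23.5 and 36.6 CPM in GFP-high and GFP-low cells on HFD, against 18.5 and 28.1 CPM in GFP-high and GFP-low cells on control diet (log2 0.37 ± 0.15 SE, edgeR adjusted p = 0.183).

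Pex19, the chaperone that brings membrane proteins to the peroxisome, was the most abundant peroxin per length and had 70.9 and 107 CPM in GFP-high and GFP-low cells on HFD, against 59.0 and 80.7 CPM in GFP-high and GFP-low cells on control diet (log2 0.34 ± 0.11 SE, edgeR adjusted p = 0.0865). The import receptors Pex5 and Pex7 did not pass. Pex5, the receptor for most matrix enzymes, had 39.5 and 45.3 CPM in GFP-high and GFP-low cells on HFD, against 31.5 and 39.9 CPM in GFP-high and GFP-low cells on control diet (log2 0.26 ± 0.13 SE, adjusted p = 0.301). Pex7, the receptor for enzymes with an N-terminal signal such as Phyh and the thiolases, had 22.8 and 31.6 CPM in GFP-high and GFP-low cells on HFD, against 21.7 and 30.4 CPM in GFP-high and GFP-low cells on control diet (log2 0.06 ± 0.15 SE, adjusted p = 0.868). The remaining ratios were between 0.17 and 0.33, for Pex3 and Pex16, which with Pex19 build the membrane, the RING ligases Pex2 and Pex10, the docking protein Pex14, the division factor Pex11g and Pex6, the ATPase that pulls the receptor back out. Pex26, the anchor of Pex6, had 37.8 and 31.2 CPM in GFP-high and GFP-low cells on HFD, against 40.7 and 37.6 CPM in GFP-high and GFP-low cells on control diet.

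**Figure D3:**
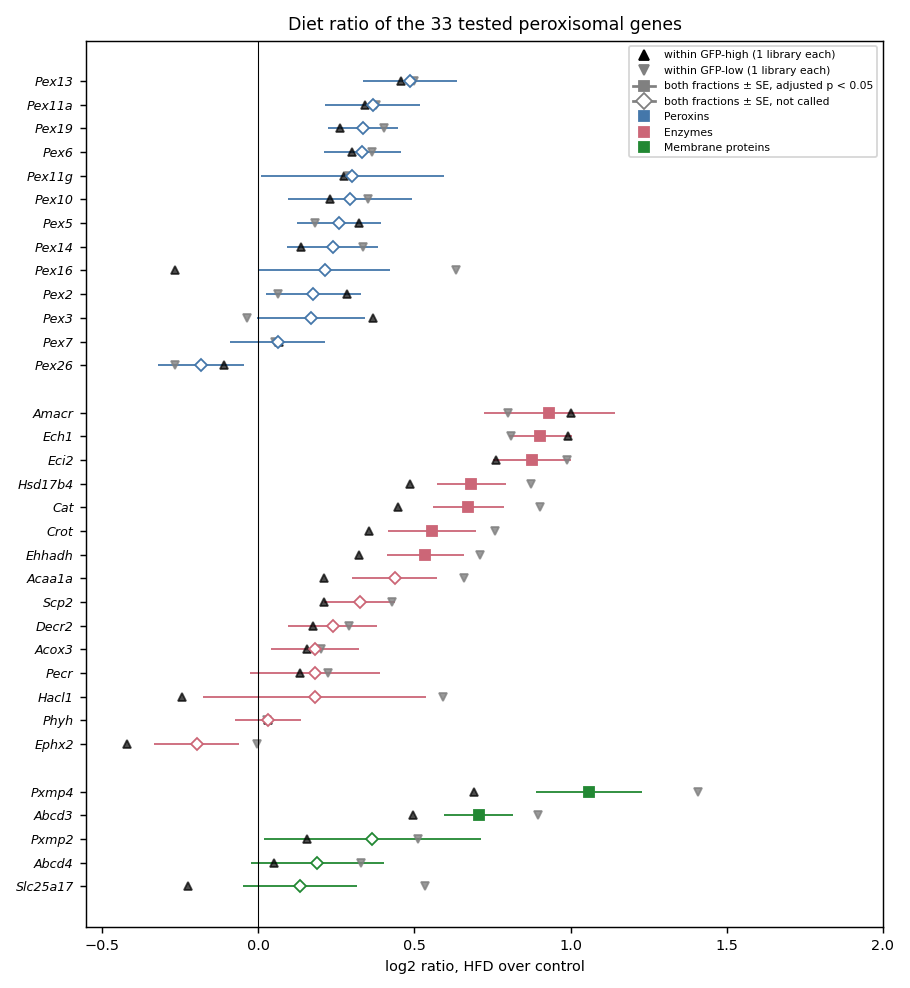
Log2 ratio of HFD over control for the 33 tested genes, by class. Squares and diamonds with bars are the ratio over both fractions with its SE, filled where called, and triangles are the ratios within GFP-high (up) and GFP-low (down), 1 library per group. The called genes lie between 0.53 and 1.06, and the peroxins between -0.18 and 0.49.

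A second list, of 52 other genes known or proposed to act in peroxisomes, had 41 tested genes, of which 4 rose under HFD and none fell. Dhrs4, a carbonyl reductase, had 190.1 and 136 CPM in GFP-high and GFP-low cells on HFD, against 106 and 67.1 CPM in GFP-high and GFP-low cells on control diet (1.90-fold, edgeR adjusted p = 2.67e-05). Nudt19, a hydrolase of CoA esters, was 1.62-fold higher (edgeR adjusted p = 0.00188). Tysnd1, a protease that trims matrix enzymes, was 1.41-fold higher (edgeR adjusted p = 0.039), and Crat, a carnitine acetyltransferase, was 1.39-fold higher (edgeR adjusted p = 0.0461). The median log2 ratio of this list was 0.20. Between the fractions 18 of its genes were lower and 5 higher in GFP-high cells, with a median of -0.37, and the higher ones were Ddo, Slc27a2, Dhrs4, Trim37 and Acsl1.

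Markers of absorptive cells moved with diet in the same libraries. Of 14 tested enterocyte markers 7 were higher under HFD and none lower, with a median log2 ratio of 0.52, and of 6 tested Paneth cell markers 5 were lower. The 7 tested goblet cell markers had a median of -0.68 and none passed. Of 10 stem cell markers 8 had a diet ratio below 0, with a median of -0.22, and 2 were lower under HFD, Msi1 (edgeR adjusted p = 0.0234) and Tnfrsf19 (edgeR adjusted p = 0.00467). The defining enterocyte genes were above 0 counts in all libraries. More cells of a type and more RNA per cell cannot be told apart in bulk samples, and the part of the cell mixture in the diet ratios of the peroxisomal genes was not tested.

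Within the fractions, the diets were set side by side with 1 library each and without a test. In GFP-high cells 1 gene was at least 2-fold higher under HFD at 5 CPM or more, Amacr (log2 1.0, counting interval 0.55 to 1.55), beside 0.810% of all genes at that level. In GFP-low cells they were Pxmp4 (log2 1.41, counting interval 1.12 to 1.75) and Acaa1b, beside 1.58% of all genes. None was 2-fold lower in either fraction, beside 1.51% in GFP-high and 2.63% in GFP-low cells. The summed CPM of the 36 genes was 1582 in HFD and 1236 in control GFP-high cells, a ratio of 1.28, and 2344 in HFD and 1563 in control GFP-low cells, a ratio of 1.5. For the 13 peroxins these ratios were 1.16 and 1.21, for the 17 enzymes 1.33 and 1.54, and for the 6 membrane proteins 1.30 and 1.87, in GFP-high and GFP-low cells.

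The diet ratio was larger in GFP-low than in GFP-high cells for 25 of the 33 tested genes and for 12 of 15 enzymes, beside 49.0% of all tested genes. The tested enzymes had a median log2 ratio of 0.21 in GFP-high and 0.66 in GFP-low cells, and the peroxins 0.27 in GFP-high and 0.33 in GFP-low cells, beside 0.02 and 0.00 over all tested genes. Without the HFD GFP-high library, which stood apart in mitochondrial ribosomal RNA, the median diet ratio was 0.66 for enzymes, 0.34 for peroxins and 0.56 for membrane proteins (log2), since the GFP-low pair alone then carries the diet. The counting intervals of the fractions were apart for 6 genes, namely Hsd17b4, Cat, Abcd3, Pxmp4, Pex16 and Slc25a17, and in each the ratio was higher in GFP-low cells. Intervals were apart for 8.52% of all tested genes, 4.12% with the higher ratio in GFP-low cells. Cat had a log2 ratio of 0.45 in GFP-high (0.32 to 0.57) and 0.90 in GFP-low cells (0.76 to 1.05). Pex16 had a log2 ratio of -0.27 in GFP-high (-0.68 to 0.14) and 0.63 in GFP-low cells (0.27 to 1.02), and Slc25a17 had -0.23 (-0.55 to 0.09) and 0.53 (0.19 to 0.91). With 1 library for each diet and fraction this difference has no test. Ephx2 had -0.42 in GFP-high (-0.71 to -0.14) and 0.00 in GFP-low cells (-0.23 to 0.23). The enterocyte markers had a median log2 diet ratio of 0.26 in GFP-high and 0.76 in GFP-low cells. Goblet cell markers had medians of -0.10 in GFP-high and -1.18 in GFP-low cells. Those of enteroendocrine markers were 0.22 in GFP-high and -1.21 in GFP-low cells, and those of Paneth cell markers -0.68 and -1.06. The part of these cell types in the differences was not tested.

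The fractions were then compared over both diets, to place the genes between stem cells and progenitors. In GFP-high cells 17 of 33 tested peroxisomal genes fell and none rose. Of all tested genes 47.6% were called, 25.6% lower and 22.0% higher. The fallers were 6 of 13 peroxins, 9 of 15 enzymes and 2 of 5 membrane proteins. No member was higher at an unadjusted p under 0.05 in edgeR, beside 2726 of all 10694 tested genes. DESeq2's Wald test called 5 members lower and 0 higher, beside 1491 and 899 of all tested genes. Scaling by library totals, which moved the median of all genes by 0.19 on the log2 scale, left 9 lower and called Pex26 higher. The median fraction ratio (log2, GFP-high over GFP-low cells) stood at -0.38 for peroxins, -0.39 for enzymes and -0.40 for membrane proteins, against 0.00 for all tested genes.

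The largest fraction ratios were those of the transporter Abcd3 and the enzymes Ehhadh, Ephx2 and Scp2. With the CPM values given above, Abcd3 was 2.15-fold lower in GFP-high than in GFP-low cells (log2 -1.11 ± 0.11 SE, edgeR adjusted p = 1.79e-06) and Ehhadh 2.14-fold lower (log2 -1.10 ± 0.12 SE, edgeR adjusted p = 3.1e-06). Ephx2 was 1.99-fold lower (log2 -0.99 ± 0.14 SE, edgeR adjusted p = 2.28e-05). Scp2 was at 65.2 CPM in GFP-high and 121 CPM in GFP-low cells on HFD, and at 56.3 CPM in GFP-high and 89.7 CPM in GFP-low cells on control diet, 1.73-fold lower in GFP-high (edgeR adjusted p = 3.13e-05). In all 4 the GFP-high library was below the GFP-low library on each diet, and these 4 with Ech1 were the genes that DESeq2 also called. Decr2 was 1.52-fold lower in GFP-high (adjusted p = 0.00243), Acox3 1.44-fold (0.00577), Ech1 1.42-fold (0.000651), Acaa1a 1.32-fold (0.0242), Hsd17b4 1.26-fold (0.0228), Phyh 1.24-fold (0.0248) and Pxmp4 1.36-fold (0.0452), all from edgeR. Pxmp4 lost the call with DESeq2's size factors (adjusted p = 0.0686) and with TMM factors from the tested genes (0.0626).

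Among the peroxins, Pex16 was at 15.3 CPM in GFP-high and 34.0 CPM in GFP-low cells on HFD, and at 18.5 CPM in GFP-high and 21.7 CPM in GFP-low cells on control diet (log2 -0.73 ± 0.21 SE, edgeR adjusted p = 0.013), and most of the gap came from the HFD libraries. Pex11a was 1.54-fold lower in GFP-high (edgeR adjusted p = 0.00313) and Pex19 1.44-fold (edgeR adjusted p = 0.00107), with like ratios on each diet. Pex7 was 1.39-fold lower (edgeR adjusted p = 0.0167). Pex14 and Pex2 lay close to the threshold, both 1.30-fold lower (edgeR adjusted p = 0.0421 and 0.0483), and both lost the call with DESeq2's size factors or TMM factors from the tested genes. Pex11g, on 31 to 54 counts per library, was 1.58-fold lower and did not pass (edgeR adjusted p = 0.0744).

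The gene with the highest level, Cat, did not pass between the fractions. Cat was 1.05-fold lower in GFP-high cells (log2 -0.07 ± 0.11 SE, edgeR adjusted p = 0.659), with a log2 ratio of -0.28 on HFD and 0.17 on control diet. Eci2 (log2 -0.03 ± 0.12 SE, edgeR adjusted p = 0.862) and Pex6 (log2 -0.07 ± 0.12 SE, edgeR adjusted p = 0.677) had ratios close to 0. Pex26 and Pex10 were the tested genes with a ratio above 0 (log2 0.20 ± 0.14 SE and 0.13 ± 0.20 SE, edgeR adjusted p = 0.258 and 0.611). At least 2-fold lower in GFP-high on HFD were 5 genes, beside 9.05% of all genes, and on control diet 0, beside 9.30%. None was 2-fold higher, beside 6.34% on HFD and 5.43% on control diet. Those on HFD were Abcd3, Ehhadh, Ephx2, Pex16 and Acaa1b. Of the 14 tested enterocyte markers 13 were lower in GFP-high cells, with a median log2 ratio of -2.87, and all 7 goblet cell markers were lower, with a median of -2.91. Their part in the fraction ratios of the peroxisomal genes was not tested.

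**Figure D4:**
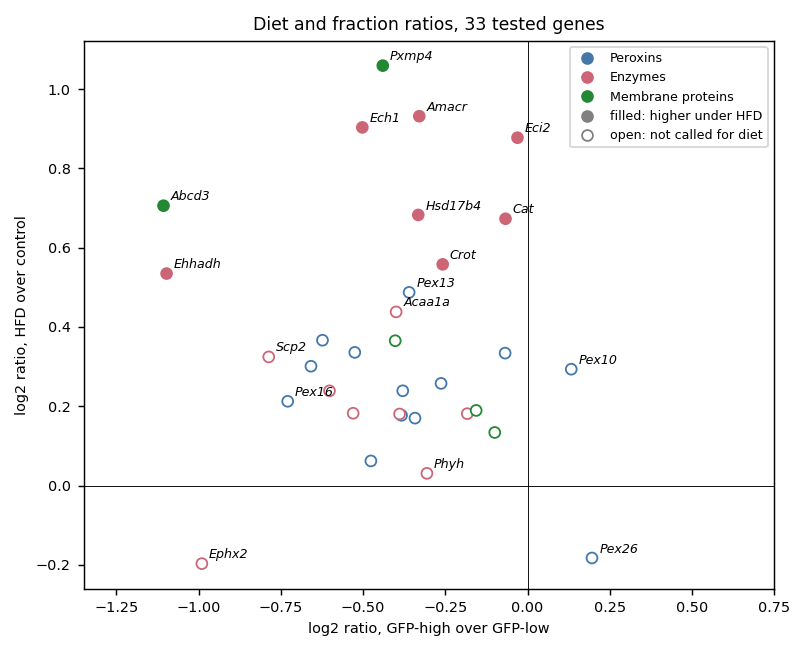
Log2 ratio of HFD over control (vertical) against the same for GFP-high over GFP-low cells (horizontal) for the 33 tested genes, coloured by class and filled where higher under HFD. Ehhadh and Abcd3 lie at the far left and are filled, Cat and Eci2 lie near 0 on the horizontal axis and are filled, and Ephx2 lies low on both axes.

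The calls for diet and for fraction met in 5 genes, which were higher under HFD and lower in GFP-high cells, namely Abcd3, Ehhadh, Ech1, Hsd17b4 and Pxmp4. Only Abcd3 and Ech1 were in both sets of calls with DESeq2's Wald test, and Abcd3, Ech1 and Ehhadh with library totals. With DESeq2's size factors in edgeR the 4 without Pxmp4 were in both. The other 4 diet calls, Cat, Eci2, Amacr and Crot, did not pass between the fractions, and 12 of the fraction calls did not pass for diet. Both comparisons use the same 4 libraries. Of all tested genes 2.96% were higher under HFD and 25.6% were lower in GFP-high cells. The share of all tested genes in both sets was not counted, so the 5 genes have no share to stand beside. Ephx2 had the third largest fraction ratio and the lowest diet ratio.

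All p-values rest on an additive fit with 1 residual degree of freedom, which counts any diet-by-fraction difference as spread. If GFP-high and GFP-low cells of a diet shared mice, the diet p-values understate the error. Exons of 11 of the 36 genes overlap a gene on the opposite strand, among them Eci2, Acaa1a, Pex13, Pex14 and Pex16. The kit keeps strand, but the strand setting of the counting is not stated. No member was called for diet without fraction in the fit (0 of 33, with 6 at an unadjusted p under 0.05). Of all 10694 tested genes 0 were called in that fit, with 43 higher and 106 lower at an unadjusted p under 0.05.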

How the data were processed

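Gene counts were deposited for 4 libraries of poly(A)+ RNA made with a kit that keeps strand, per the labels' protocols. The authors used cutadapt, TopHat 1.4.1 and HTSeq, and the build was GRCm38, per the submitters' processing notes. The members and lists were chosen with earlier results of these data known. All members are described, and the other genes named are those called on the list of other peroxisomal genes and the markers.

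The 10694 genes that reached 20 counts in 2 or more libraries were fitted with edgeR 4.0.16 (R 4.3.3, quasi-likelihood, fraction plus diet, Benjamini-Hochberg adjustment over all tested genes). The plan set TMM scaling and the filter but not the remaining edgeR options. The first fit run scaled over the tested genes without robust shrinkage and called 543 genes for diet. After other option sets had been compared (the 11 tabulated gave 508 to 755 diet calls), TMM over all genes with robust shrinkage (691 calls) was adopted because it matched the call count of an earlier analysis of these files. Over these options 8 or 9 members were called for diet and 13 to 17 for fraction.

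Ratios within a fraction or diet used CPM plus 0.5, with exact 95% Poisson intervals that cover counting error only. A share of 0 counts was given a limit of 3 counts. On simulated data, 90% of 2-fold diet changes and 93% of 2-fold fraction changes were recovered over 10694 genes. Of the simulated calls, 3.59% for diet and 6.31% for fraction were false. The simulated counts held 200 changed genes, against 5090 called for fraction in the data, and no diet-by-fraction difference. They shared 1 dispersion (spread beyond counting error) of 0.007, beside 0.0069 in the fit itself. These shares are therefore not error rates of the calls reported here. DESeq2 1.42.0 was an alternative. Promoters are RefSeq (GRCm38.p6) and gene positions GENCODE M21. The CpG count, the looser repeat and the printed promoters were chosen after the data were seen. Protein sequences were not used here.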

Additional observations from a re-analysis of the deposited data

How the results depend on the processing

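The fit of fraction plus diet compares the diets within each fraction and the fractions within each diet, and fits of a lone factor are its unblocked alternatives. No paired analysis by replicate was possible, because each diet and fraction has 1 library. No called gene or class median turned its direction. The balance of fraction calls over all genes did turn, from 2350 higher and 2740 lower in the main fit to 3633 higher and 1903 lower with library totals. Leaving out 1 library turned the sign of uncalled diet ratios, of Pex16, Hacl1 and Slc25a17 without a GFP-low library and of Pex3 without a GFP-high one, and of the fraction ratios of Cat, Eci2, Hacl1 and Slc25a17 without an HFD library. For diet, DESeq2's Wald test called 5 members higher, and over all genes 73 higher and 114 lower. DESeq2's size factors in edgeR called 198 genes higher and 270 lower. Without a filter on counts 522 genes were higher and 636 lower. A fit of diet without fraction called 0 members higher, with 6 at an unadjusted p under 0.05, and 0 genes higher and 0 lower, with 43 and 106 at an unadjusted p under 0.05. The membrane median for diet was 0.71 with a filter of 100 counts. For fraction, library totals called 1 member higher and 9 lower, and 3633 genes higher and 1903 lower, with medians of -0.19 for peroxins and -0.20 for enzymes. DESeq2 called 5 members lower, and 899 genes higher and 1491 lower. A fit without diet called 4 members lower, and 1281 genes higher and 1667 lower. Members 2-fold higher under HFD in GFP-high cells numbered 0 with 2 CPM added, 2 from library totals and 2 with no minimum level. Those 2-fold lower in GFP-high on HFD numbered 3 from library totals. The cause was not tested for any of these. Leaving out 1 library at a time gave diet medians of 0.29 to 0.34 for peroxins, 0.21 to 0.66 for enzymes and 0.17 to 0.56 for membrane proteins. The fraction medians were then -0.38 to -0.34, -0.51 to -0.31 and -0.57 to -0.00443 in the same order of classes. The enzyme and membrane diet medians took their low values without either GFP-low library and their high values without either GFP-high library. The membrane fraction median was nearest to 0 without either HFD library. Genes under about 50 counts, such as Hacl1, Pxmp2, Pex11g and Acaa1b, have wide counting intervals.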
